A study of Homo sapiens and Mus musculus with 160 samples.

Results

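The mRNAs described here are 9 immediate early transcripts: EGR1, EGR2, EGR3, IER2, IER3, IER5, IER5L, SRF and NR4A1. They were chosen by gene symbol, ignoring case, from deposited tables of RNA half-lives. All 9 have a row among the 18165 genes of the human tables and among the 17985 genes of the mouse tables. Human symbols are used for these 9 in both species, and mouse symbols of other genes are written in capitals.

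The half-lives come from subcellular TimeLapse-seq, in which newly made RNA carries a uridine analog that is read as T-to-C mismatches, in K562 cells, a human leukaemia line with erythroid features, and in NIH-3T3 cells, a mouse fibroblast line. The sample titles call the cells of both lines WT, and the labels give their treatment as none. Each line had 2 replicate time courses of 25 samples, from 5 fractions (chromatin, nuclear, cytoplasmic, polysome and whole-cell RNA) at 5 labelling times (0, 15, 30, 60 and 120 minutes), and each time course gave 1 table. The 60 samples of the series with shRNAs were not analysed here. Species, cell type and gene annotation all differ between the lines and cannot be told apart in a comparison of K562 with NIH-3T3 cells. All 9 erythroid and K562 markers, among them GATA1, had a whole-cell half-life in both K562 tables and 0 had one in the NIH-3T3 tables. Markers were matched by symbol, and globin symbols such as HBG1 and HBG2 are human names. Their absence from the NIH-3T3 tables was thus fixed in advance and says nothing of the cells. Of 8 fibroblast markers, 3 and 4 had one in the K562 tables and 8 in each NIH-3T3 table.

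Each value is the authors' posterior mode in minutes, with a 95% credible interval, for 6 quantities: residence on chromatin, residence in the nucleus, nuclear export, cytoplasmic turnover, polysome loading and whole-cell turnover, each as a half-life. Export is taken throughout from the authors' fit without decay inside the nucleus. The values are rounded to 2 significant digits, with an upper bound of 6900 minutes. The tables give no read numbers, so the depth behind each value is unknown and the credible interval is the measure of its precision. A replicate is 1 table, and the labels do not say whether the replicates were separate cultures, so the tests between lines rest on table-to-table spread alone, and that spread may be technical.

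Immediate early genes are switched on within minutes of a growth factor or stress signal, without new protein synthesis, and their mRNAs are known for rapid decay, in many cases through AU-rich elements in the 3′ untranslated region (3′ UTR) that recruit decay factors. SRF, serum response factor, binds CArG boxes in the promoters of many of them and is itself an immediate early gene. EGR1, EGR2 and EGR3 are zinc-finger transcription factors, NR4A1 is an orphan nuclear receptor, IER2, IER5 and IER5L are related nuclear proteins, and IER3 is a regulator of cell survival.

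In the human annotation (GENCODE 29, GRCh38), 8 of the 9 mRNAs held at least 1 ATTTA pentamer, the core of AU-rich elements, in the 3′ UTR of the transcript chosen for each gene, against 66.0% of the 12797 genes with a half-life in K562 that matched the annotation. The pentamer was searched on the transcript strand, with overlaps counted. IER5 had 10 pentamers in a 3′ UTR of 3013 bases, IER3 had 6 in 737 bases, and EGR1 had 1 in 1234 bases. IER2 had 0 in 1050 bases. The longer form TTATTTATT occurred in IER5 (3 times) and SRF (once), and in 7.80% of all genes. The form TATTTAT occurred in 3 of the 9, against 30.1% of all genes. Per kilobase of 3′ UTR, EGR1 (0.81), EGR3 (1.07), SRF (1.3) and IER2 (0) had fewer pentamers than the all-gene median of 1.5. EGR2, IER3, IER5, IER5L and NR4A1 had more, from 1.65 for EGR2 to 8.14 for IER3. The stretches of 30 bases with most pentamers, which show how the elements differ between the mRNAs, read as follows, 5′ to 3′ on the transcript strand with the pentamers in capitals:
IER5 (chr1:181092448-181092477, + strand): ttcctttATTTATTTATTTATTTAattata
IER3 (chr6:30743648-30743677, - strand): taattaatATTTAtatgtATTTAtgtacgt
NR4A1 (chr12:52059409-52059438, + strand): cATTTAtatttgtgtattttcctggATTTA
EGR1 (chr5:138469063-138469092, + strand): actgaaaatgtaaATTTAtaaatatattca
SRF (chr6:43179223-43179252, + strand): gatggcaccacttATTTAttgttgcctttt
The IER5 stretch holds 4 pentamers that overlap end to end, those of IER3 and NR4A1 hold 2 apart from each other, and those of EGR1 and SRF hold 1.

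CArG boxes, the sites that SRF is known to bind, were looked for in RefSeq promoter sequences (GRCh38.p14, from 250 bases before to 50 after a gene's start), which held 11 promoters of 7 of the 9 genes. A match was any run of CC, then 6 bases of A or T, then GG, a pattern that reads the same on both strands. Promoters of 3 genes, EGR1, EGR2 and SRF, held at least 1, against 1.29% of the 35116 promoters in the table. EGR1 and SRF each had 2 in 1 promoter, which 0.0313% of all promoters had. No promoter of IER2, IER5, IER5L or NR4A1 held a match, and EGR3 and IER3 had no promoter among the 11. The matches are given 5′ to 3′ on the strand of the gene, with the box in capitals:
EGR1, 105 bases before the start (chr5:138465366-138465391, + strand): cggtcctgCCATATTAGGgcttcctg
EGR1, 83 bases before the start (chr5:138465388-138465413, + strand): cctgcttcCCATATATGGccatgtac
EGR2, 71 bases before the start (chr10:62816420-62816445, - strand): tcctcagtCCATATATGGgcagcgac
SRF, 30 bases before the start (chr6:43171231-43171256, + strand): ggggctcaCCATATAAGGagcggcct
SRF, 10 bases before the start (chr6:43171251-43171276, + strand): cggcctcgCCATAAAAGGaaacattg
These matches describe the letters in the promoters. The half-lives below measure RNA after it is made and say nothing of binding at these sites.

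The mRNAs were short-lived in both lines, at most steps from chromatin to cytoplasm. Whole-cell half-lives of the 7 members with a value in both K562 tables ran between 20 minutes for IER3 and 170 minutes for SRF, against all-gene medians of 210 and 200 minutes in the 2 K562 tables. Those of the 9 members in NIH-3T3 cells ran between 13 minutes for IER3 and EGR1 and 150 minutes for SRF, against all-gene medians of 110 minutes in both tables. IER3 lay in the lowest 0.4% of genes in all 4 tables. In K562 cells 3 of the 7 members lay at or under the 10th percentile of genes in replicate 1 and 5 of 7 in replicate 2, and in NIH-3T3 cells 8 of 9 did in each replicate. SRF had the highest rank of the members in every table, at the 35.8th and 42.6th percentiles in K562 cells and the 64.9th and 49.8th in NIH-3T3 cells.

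**Figure D1:**
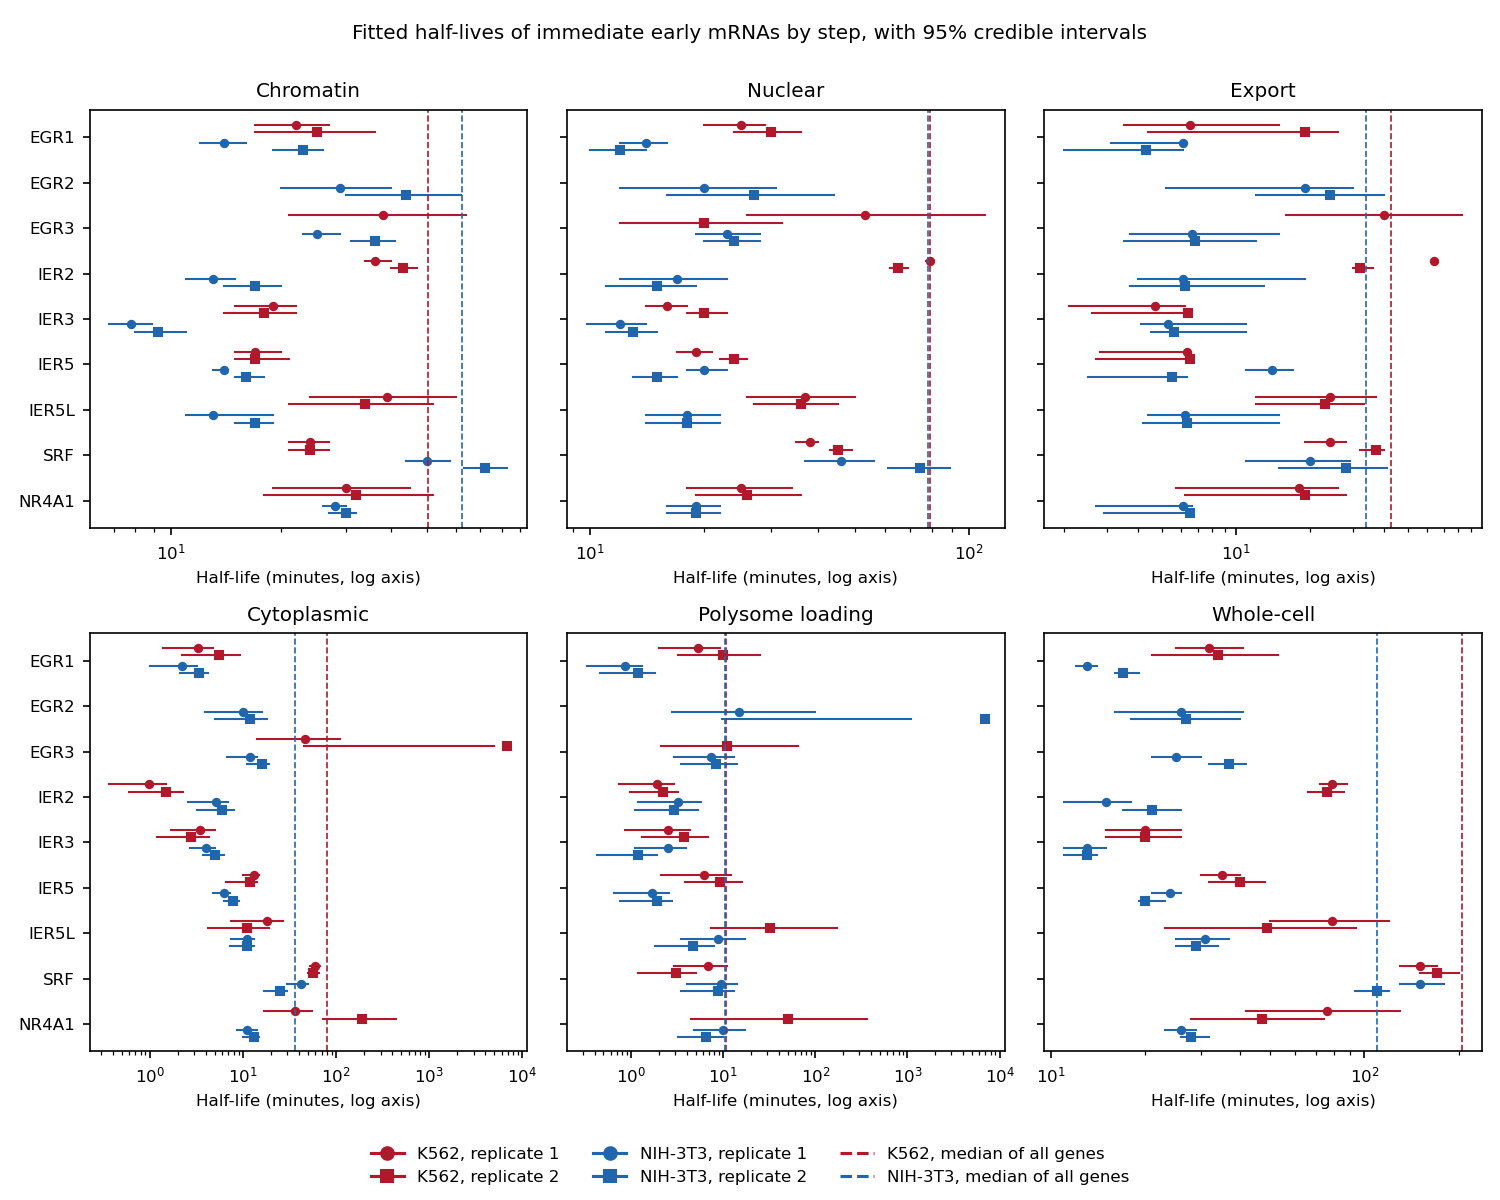
Posterior modes (points) and 95% credible intervals (lines) of the 6 half-lives in minutes, on log axes, for the 9 mRNAs in K562 (red) and NIH-3T3 cells (blue), with 1 symbol per replicate and the median of all genes in each line dashed. Most points lie left of both dashed lines, SRF lies nearest to them in the whole cell, and IER2 stands far left in the K562 cytoplasm, at 0.99 and 1.5 minutes.

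All 6 half-lives were given in both replicates for 5 of the 9 mRNAs in K562 cells (EGR1, IER2, IER3, IER5 and SRF) and for 9 of 9 in NIH-3T3 cells. EGR2 had no value in K562 cells. EGR3 had 4 and 3 of the 6 quantities in the K562 replicates, and IER5L and NR4A1 lacked the polysome value in K562 replicate 1. Members with a missing value enter no test of that quantity, and whether low read numbers lie behind the gaps was not tested.

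Among the zinc-finger factors, EGR1 mRNA was one of the least stable in the cytoplasm of either line. Its cytoplasmic half-life was 3.3 and 5.6 minutes in K562 cells and 2.2 and 3.4 minutes in NIH-3T3 cells, within the lowest 0.6% of genes in every table. On chromatin it stayed for 22 and 25 minutes in K562 cells, against 14 and 23 minutes in NIH-3T3 cells. The nuclear half-life was 25 and 30 minutes in K562 cells and 14 and 12 minutes in NIH-3T3 cells, so the lines did not overlap. EGR1 thus spent longer in the nucleus than in the cytoplasm in both lines, with credible intervals apart in both replicates. The polysome loading half-life, 5.3 and 10 minutes in K562 cells and 0.86 and 1.2 minutes in NIH-3T3 cells, was the member's largest difference between lines, 2.84 on the log2 scale (SE 0.73), but it missed the threshold in limma (adjusted p = 0.405).

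EGR2 and EGR3, relatives of EGR1 with roles in nerve and muscle development, were measured fully only in NIH-3T3 cells. EGR2 had cytoplasmic half-lives of 10 and 12 minutes there and nuclear half-lives of 20 and 27 minutes, with intervals that overlapped. Its polysome value was 15 minutes in replicate 1 and 6900 minutes, the bound of the fit, in replicate 2, whose credible interval of 9.6 to 1100 minutes does not hold its own mode. EGR3 had cytoplasmic half-lives of 12 and 16 minutes in NIH-3T3 cells, shorter than its nuclear 23 and 24 minutes with intervals apart. In K562 cells its cytoplasmic mode was 46 minutes in replicate 1 (interval 14 to 110) and 6900 minutes in replicate 2 (interval 45 to 5000), so the replicates leave its stability there undetermined.

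NR4A1 had values near those of EGR3 in NIH-3T3 cells, with 19 minutes in the nucleus in both replicates and 11 and 13 minutes in the cytoplasm. The 2 mRNAs were each other's nearest gene among 11039 genes by Euclidean distance over the 6 log2 half-lives in NIH-3T3 cells, at 0.42, where the median distance from NR4A1 to all genes was 4.92 and the distance between its own replicates 0.69. ARID3A was the next nearest gene of both, at 0.43 from EGR3 and 0.52 from NR4A1. The replicates of EGR3 lay 0.90 apart, so the order of these nearest genes is not resolved. In K562 cells NR4A1 had cytoplasmic half-lives of 36 and 190 minutes, whose intervals of 17 to 55 and 73 to 440 minutes did not overlap. The replicates thus disagreed there, whereas on chromatin they gave 30 and 32 minutes.

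IER3 mRNA had the shortest whole-cell half-life of the 7 members with a value in K562 cells, at 20 and 20 minutes, and the lowest mean of the 9 in NIH-3T3 cells, at 13 and 13 minutes. It was not told apart from EGR1, the next in both lines, which had 13 minutes in NIH-3T3 replicate 1 as well. It left chromatin with a half-life of 19 and 18 minutes in K562 cells and 7.8 and 9.2 minutes in NIH-3T3 cells, where both values lay in the lowest 0.8% of genes. Its cytoplasmic half-life was 3.5 and 2.8 minutes in K562 cells and 4 and 5 minutes in NIH-3T3 cells. Chromatin, nuclear, cytoplasmic and whole-cell values of IER3 all lay under the 4th percentile of genes in all 4 tables.

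IER5, a partner of heat shock factor and of the PP2A phosphatase, left chromatin after 17 and 17 minutes in K562 cells and 14 and 16 minutes in NIH-3T3 cells. Its cytoplasmic half-life was 13 and 12 minutes in K562 cells and 6.2 and 7.8 minutes in NIH-3T3 cells. The modes of the lines did not overlap, but the intervals did. That of K562 replicate 2, 6.6 to 14 minutes, overlapped 4.8 to 7.3 and 6.3 to 9.1 minutes in NIH-3T3 cells. IER5L, its paralog, had whole-cell half-lives of 79 and 49 minutes in K562 cells and 31 and 29 minutes in NIH-3T3 cells. In these values the K562 half-lives were the longer ones, but for IER5 the difference turned to -0.38 in the cytoplasm and -0.19 in the whole cell once each table was centred on its median. The K562 replicates of IER5L differed from each other more than those of IER5.

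SRF mRNA was the stable member. Its whole-cell half-life was 150 and 170 minutes in K562 cells and 150 and 110 minutes in NIH-3T3 cells, and it was told apart from the next longest member in both lines, with credible intervals apart in both replicates. In the cytoplasm it lasted 60 and 57 minutes in K562 cells and 42 and 25 minutes in NIH-3T3 cells. On chromatin the order of the lines was the reverse, at 24 and 24 minutes in K562 cells and 50 and 72 minutes in NIH-3T3 cells. Its nearest genes over the 12 log2 half-lives of both lines were DNAJC14, HARS2 and BAG2, none of them in the lists of immediate early genes used here, and EGR1 ranked 7764th of 8224 genes by that distance.

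IER2, a nuclear protein of the immediate early response, was the member whose ratio of nuclear to cytoplasmic half-life differed between the lines past the threshold (the test is given with the comparison of the lines). In K562 cells its cytoplasmic half-life was 0.99 minutes (interval 0.37 to 1.5) and 1.5 minutes (0.6 to 2.3), the shortest of the 8 members with a value and in the lowest 0.1% of genes. In NIH-3T3 cells it was 5.1 and 5.9 minutes. The modes of both lines lie below the shortest labelling time above 0, 15 minutes, and those of K562 cells furthest below it. All cytoplasmic modes of EGR1, IER3 and IER5 in the 4 tables lie below it too.

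In the nucleus the order was the opposite. IER2 had nuclear half-lives of 79 minutes (77 to 80) and 65 minutes (62 to 69) in K562 cells, the longest of the 8 members there, and 17 and 15 minutes in NIH-3T3 cells. Its export half-life was 64 and 32 minutes in K562 cells and 6.1 and 6.2 minutes in NIH-3T3 cells, and its chromatin half-life was 36 and 43 minutes in K562 cells and 13 and 17 minutes in NIH-3T3 cells. No value of 1 line overlapped the other at any of these steps. The whole-cell half-life, 79 and 76 minutes in K562 cells and 15 and 21 minutes in NIH-3T3 cells, was close to the nuclear one in each line.

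The ratio of nuclear to cytoplasmic half-life of IER2 was accordingly 79.8 and 43.3 in K562 cells and 3.33 and 2.54 in NIH-3T3 cells. Only 43 of 12552 genes in K562 replicate 1 and 170 of 12556 in replicate 2 had a higher ratio. In NIH-3T3 cells 3607 of 12027 genes in replicate 1 and 4913 of 12082 in replicate 2 did, so IER2 was not near the extreme there. The nearest gene to IER2 over both lines was EGR1, at a distance of 4.31, followed by RSRP1 and JUN, while its own replicates lay 1.43 apart. EGR1, IER3, IER5 and SRF, the other members with values in all tables, each had a gene nearer than that, at distances of 2.47, 2.42, 1.51 and 1.02.

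**Figure D2:**
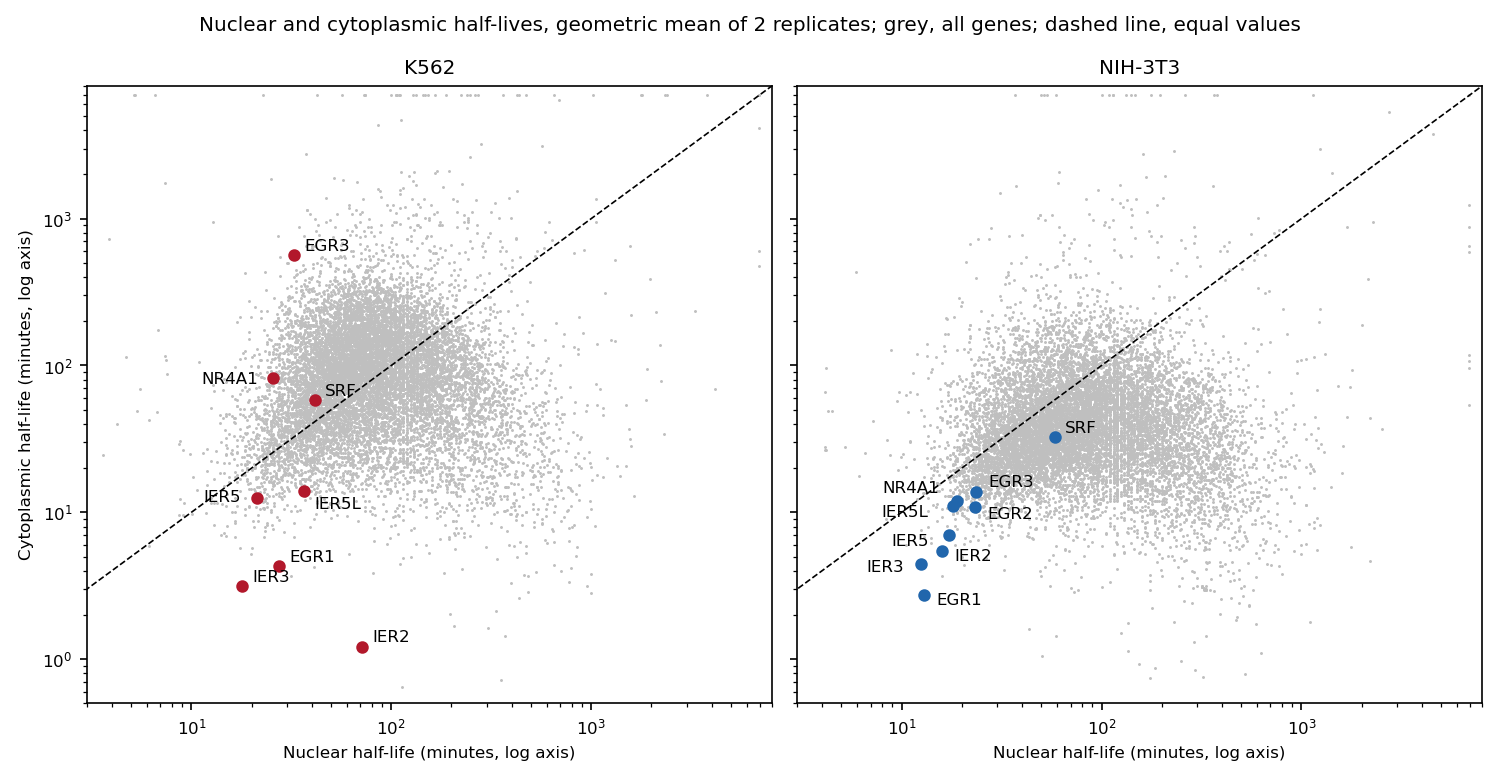
Nuclear half-life (x) against cytoplasmic half-life (y), both in minutes on log axes, as the geometric mean of the 2 replicates, in K562 (left) and NIH-3T3 cells (right), with all genes in grey and equal values on the dashed line. IER2 sits at the lower edge of the K562 cloud, apart from the other labelled mRNAs, and among them in NIH-3T3 cells, while EGR3 and NR4A1 lie above the line in K562 cells on replicates that disagreed.

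Whether an mRNA spends more time in the nucleus or in the cytoplasm was compared within each line by asking that the 95% credible intervals of the 2 steps lie apart, the same way, in both replicates. In K562 cells 4 of 8 members (EGR1, IER2, IER3 and IER5) were slower in the nucleus, as were 24.2% of all genes, and 1, SRF, was slower in the cytoplasm, as were 26.4% of all genes. In NIH-3T3 cells 7 of 9 were slower in the nucleus, against 51.8% of all genes, and 0 were slower in the cytoplasm, against 5.71%. EGR2 and SRF were the 2 members not told apart in NIH-3T3 cells. Steps that differ less than their intervals are not told apart by this rule, which has no p-value.

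Chromatin residence was longer than export for IER3 and IER5 in K562 cells, 2 of 7 members, against 26.9% of all genes. In NIH-3T3 cells it was longer for 4 of 9 members (EGR1, EGR3, NR4A1 and SRF), against 29.8% of all genes. No member had the longer export step with both replicates in accord, where 19.8% of all genes did in K562 and 1.55% in NIH-3T3 cells. By 1 replicate alone, 1 of the 7 had it in K562 cells. That was IER2 in replicate 1, with 64 minutes for export and 36 on chromatin, and SRF in replicate 2, with 37 and 24 minutes. IER2 was called the opposite way in K562 replicate 2, with 32 minutes for export and 43 on chromatin. The order depended on the replicate in NIH-3T3 cells too, where 7781 genes had the longer chromatin step without replicate 1, in place of 3631, and 1410 had the longer export step without replicate 2, in place of 189.

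Many export half-lives shared nearly 1 value. In the 4 tables, 885 and 802 genes in K562 and 220 and 686 in NIH-3T3 cells had an export mode of at least 6 and under 7 minutes, but only 20 and 39 in K562 and 9 and 55 in NIH-3T3 cells had one of at least 7 and under 10. Of the members' export values, 4 of 15 in K562 and 9 of 18 in NIH-3T3 cells fell in that narrow range and 0 in the gap above it. The near-equal 6.1 to 6.8 minutes of EGR3, IER2, IER5L and NR4A1 in both NIH-3T3 replicates, and of EGR1 in replicate 1 (4.3 minutes in replicate 2), are thus shared with many other genes, and their intervals, such as 2.7 to 6.6 minutes for NR4A1, are much wider than the spread of the modes. The cause of this accumulation was not tested.

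Polysome loading was faster than cytoplasmic turnover for SRF in K562 cells, 1 of 5 members, against 55.9% of all genes. In NIH-3T3 cells it was faster for IER5 and SRF, 2 of 9 members, against 46.8%. The reverse order was called for 0 members, against 0.243% of all genes in K562 and 0.514% in NIH-3T3 cells. Polysome intervals were wide in general, and at most 4-fold wide in only 9.59% and 20.1% of genes in K562 and 36.3% and 41.9% in NIH-3T3 cells. EGR1 in K562 replicate 2, for example, had 10 minutes with an interval of 3.2 to 25.

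The authors' call of nuclear degradation, which marks genes whose nuclear RNA is better fitted with decay inside the nucleus, was made for 371 of 11409 assessed genes in K562 (3.25%) and 509 of 11667 in NIH-3T3 cells (4.36%). No member carried it, of 7 assessed in K562 and 9 in NIH-3T3 cells. The Bayes factor for IER2 in K562 cells, however, was 3.7e+22 in replicate 1 and 0.016 in replicate 2, so that replicate 1 alone stood far past 100 and replicate 2 went the other way. A disagreement of that kind, with at least 100 in 1 replicate and at most 0.1 in the other, occurred in 484 of 11136 K562 genes (4.35%) and 523 of 11471 NIH-3T3 genes (4.56%). All other members had Bayes factors of at most 0.11 in every table that assessed them. In the same K562 replicate, the posterior mean of the IER2 export half-life was 4400 minutes, outside its interval of 62 to 65 and over 10 times its mode of 64. Of the 12673 genes with an export value in that replicate, 65 had a mean outside the interval and 8 had one over 10 times the mode. These export values are from the fit without nuclear degradation, and the fit with it gave none for IER2 in K562 cells.

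K562 and NIH-3T3 half-lives were tested in limma on log2 modes, for genes paired by symbol that had values in all 4 tables, with Benjamini-Hochberg adjustment over all genes and a threshold of 0.05. Differences are given as log2 of K562 over NIH-3T3. The median difference over all genes was 1.11 in the cytoplasm, 0.84 in the whole cell, -0.35 on chromatin, 0.33 for export, -0.14 for polysome loading and 0 in the nucleus. The members' differences were therefore also taken after each table was centred on its median. Fits that left out 1 table were run as well: there 1 line has a single table, which is assumed to vary like the 2 tables of the other line, so a call lost in them does not show a smaller difference.

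In the whole cell 6 of 7 members were longer-lived in K562 cells, against 60.2% of 8913 genes, and 0 were shorter-lived, against 5.06%. The differences were 2.13 for IER2, 1.15 for EGR1, 1.15 for NR4A1, 1.05 for IER5L, 0.77 for IER5 and 0.62 for IER3, and SRF, with 0.31, missed the threshold. The credible intervals of the lines lay apart for IER2, EGR1 and IER5. Those of IER3 met, at 15 to 26 minutes in K562 cells and 11 to 15 in NIH-3T3 replicate 1, and its rounded modes were equal within each line. Those of IER5L and NR4A1 overlapped, at 23 to 94 and 28 to 74 minutes in K562 replicate 2 and 25 to 37 and 23 to 29 in NIH-3T3 replicate 1. The members' median of 1.05 was close to the 0.84 of all genes. After centring, only IER2 stood apart, at 1.16 (adjusted p = 0.0191 in limma), and the others lay between -0.65 and 0.18. IER3, IER5 and SRF turned negative, to -0.34, -0.19 and -0.65. After centring, 1618 genes were longer and 2346 shorter in K562 cells, where 5369 and 451 were before it. With 1 table left out, IER3, IER5L and NR4A1 passed without K562 replicate 1 and without K562 replicate 2, and 0 of 7 members and 0 of 8913 genes passed without NIH-3T3 replicate 1 or without NIH-3T3 replicate 2. EGR1, IER2 and IER5 passed in none of these 4 fits, where EGR1 was between 0.96 and 1.34, IER2 between 1.88 and 2.37 and IER5 between 0.64 and 0.90.

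In the cytoplasm IER2 was shorter-lived in K562 cells, at -2.17 (SE 0.29, limma adjusted p = 0.00870), 1 of 8 members, against 2.08% of 9087 genes. IER5 was longer-lived there by 0.84 (SE 0.22, limma adjusted p = 0.0365), against 53.4% of genes, and after centring it turned to -0.38 and was not called. EGR1, IER5L and SRF, not called before or after centring, also changed sign, from 0.65, 0.36 and 0.85 to -0.57, -0.87 and -0.37. IER2 after centring was at -3.39, and IER3, with 3.5 and 2.8 minutes in K562 and 4 and 5 minutes in NIH-3T3 cells, was then also shorter-lived, at -1.74 (limma adjusted p = 0.0258). After centring, 894 genes were longer and 1273 shorter in K562 cells, where 4853 and 189 were before it. With 1 table left out the IER2 difference was between -2.47 and -1.87 and passed only without K562 replicate 2, with adjusted p from 0.0480 to 0.0986, and IER5, between 0.68 and 1.01, passed in none. Among genes whose credible intervals were at most 4-fold wide in all 4 tables IER2 was not tested, since its K562 interval in replicate 1 was 4.05-fold wide.

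Nuclear half-lives were longer for 4 of 8 members, against 19.9% of 9466 genes, and shorter for 0, against 20%. The differences were 2.17 for IER2, 1.08 for EGR1, 1.02 for IER5L and 0.42 for NR4A1, the last at an adjusted p of 0.0498 in limma. The credible intervals of NR4A1 overlapped, at 18 to 34 and 19 to 36 minutes in K562 and 16 to 22 in both NIH-3T3 replicates. Its rounded NIH-3T3 modes were equal. The intervals of the lines lay apart for IER2, EGR1 and IER5L. Centring left these calls in place and added IER3, at 0.53, whereas NR4A1 was not called with the posterior mean in place of the mode. Leaving out 1 table put the difference of IER2 between 2.03 and 2.31 and that of EGR1 between 0.95 and 1.21, but 0 members and 0 of 9466 genes passed. With the smallest effect of the 4, NR4A1 was then between 0.40 and 0.45.

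On chromatin 3 of 7 members were slower in K562 cells, IER2 by 1.40, IER5L by 1.29 and IER3 by 1.13, against 10% of 9380 genes. SRF was faster there, at -1.32 (SE 0.36, limma adjusted p = 0.00263), 1 of 7, against 28.6% of genes. After centring EGR1 and IER5 were slower as well, at 0.75 and 0.54, and SRF was at -0.96, and over all genes 2423 were longer and 2515 shorter, where 940 and 2686 were before. Export was slower in K562 cells for IER2, by 2.88, and IER5L, by 1.91, 2 of 7 members, against 4.36% of 9135 genes, and faster for 0, against 4.60%. Both had NIH-3T3 modes in the narrow range of 6 to 7 minutes, 6.1 and 6.2 for IER2 and 6.2 and 6.3 for IER5L. Their intervals there were 4 to 19 and 3.7 to 13 minutes for IER2 and 4.4 to 15 and 4.2 to 15 for IER5L. Those of IER5L overlapped its K562 intervals of 12 to 37 and 12 to 33 minutes, and limma on modes does not use these widths. The K562 modes of IER2 were 64 and 32 minutes, from the fit without nuclear degradation. Its Bayes factor in K562 replicate 1, 3.7e+22, favoured the fit with it, and that in replicate 2, 0.016, did not. Polysome loading was called for 0 of 5 members in limma, against 0.443% of 8358 genes longer and 0.395% shorter, and EGR1 and IER5 had an unadjusted p of 0.0142 and 0.0317. In fits that left out 1 table, 0 members passed on chromatin or for export, with IER2 between 1.21 and 1.60 and SRF between -1.58 and -1.06 on chromatin. With the posterior mean in place of the mode, IER2 was at 5.82 for export and 0 of 7 members were called there.

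**Figure D3:**
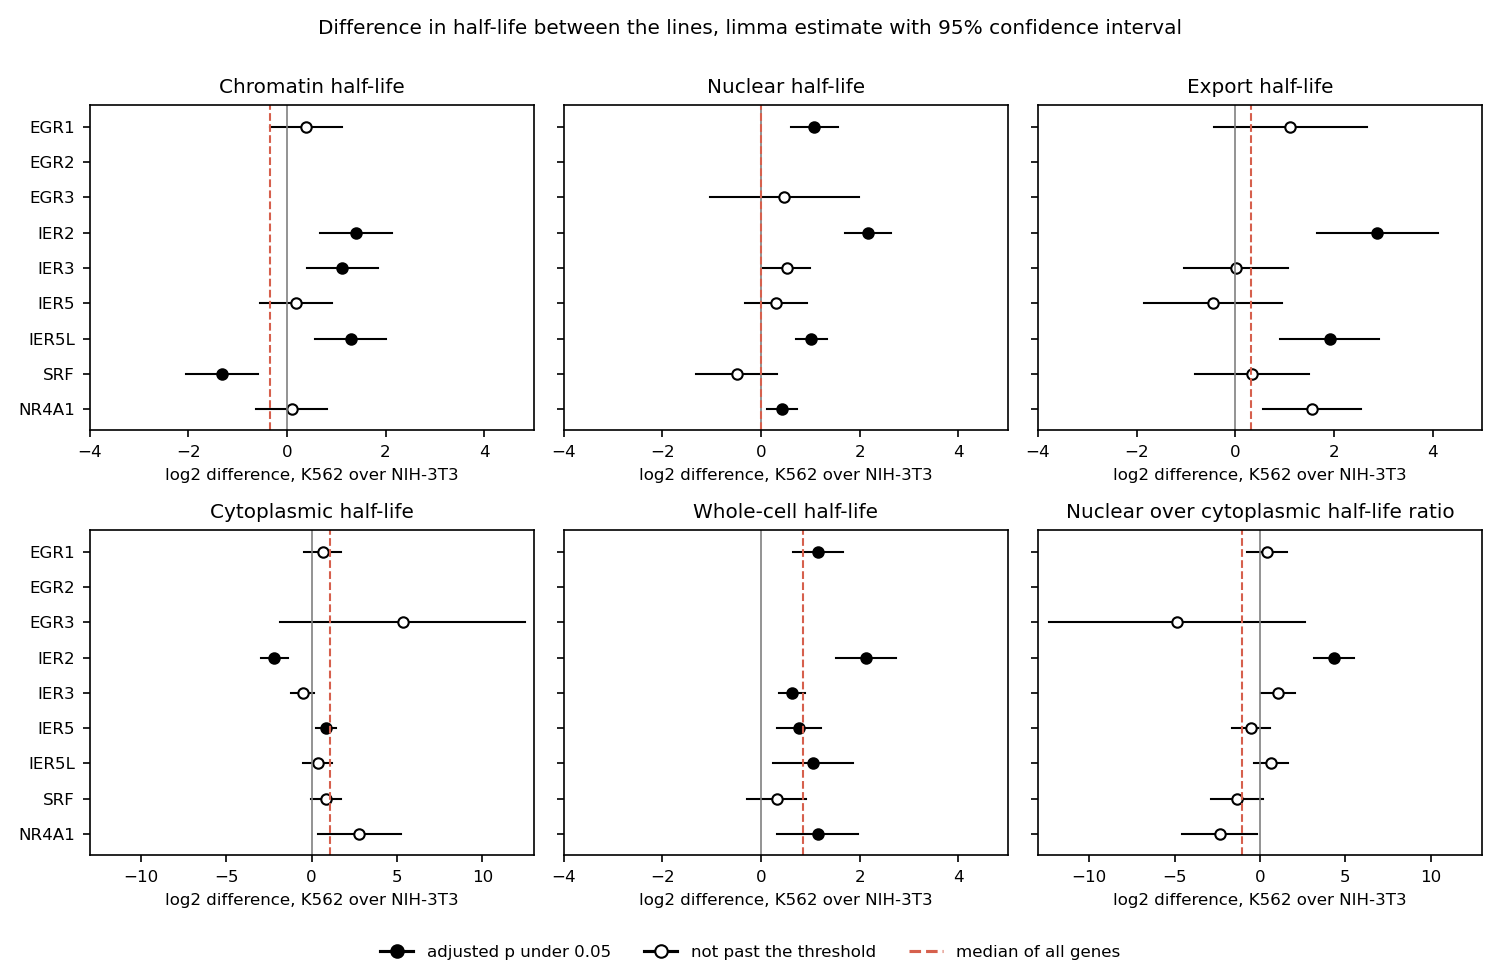
Difference between the lines (log2, K562 over NIH-3T3) in 5 half-lives and in the ratio of nuclear to cytoplasmic half-life, with limma's 95% confidence intervals, filled where the adjusted p was under 0.05, the median of all genes dashed, and a wider axis in the cytoplasmic and ratio panels. IER2 is right of the dashed line on chromatin, in the nucleus, for export and in the whole cell, and left of it in the cytoplasm, so that its ratio of 4.34 stands furthest from the all-gene median of -1.08.

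The balance of the 2 compartments was tested as the difference in log2 ratio between lines. For IER2 the ratio of nuclear to cytoplasmic half-life was higher in K562 cells by 4.34 (95% confidence interval 3.17 to 5.50, limma adjusted p = 0.00832), a 20.2-fold difference, 1 of 8 members, against 4.02% of 9087 genes. A lower ratio in K562 cells was called for 0 members, against 38.4% of genes. After centring IER2 was at 5.50, and IER3 (2.20) and IER5L (1.83) were also called, with 1406 genes higher and 1314 lower, where 365 and 3492 were before. With 1 table left out the IER2 difference was between 3.90 and 4.78 and passed only without K562 replicate 2, with adjusted p from 0.0412 to 0.0668. Ratios of chromatin to export half-life were called in limma for 0 of 7 members, against 1.92% of 9135 genes higher and 5.21% lower. The count of lower ratios, 476 genes, was 2921 without NIH-3T3 replicate 1 and 0 without NIH-3T3 replicate 2, and that of higher ratios, 175, was 367 and 0. Of cytoplasmic to polysome half-life they were called for 0 of 5 members and 0 of 8358 genes, of which 1754 had an unadjusted p under 0.05.

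Few neighbours in the order of the members could be told apart by intervals that lay apart in both replicates. In the whole cell this was so for 1 of 6 neighbouring pairs in K562 (IER2 and SRF) and 1 of 8 in NIH-3T3 cells (EGR3 and SRF). In the cytoplasm it was so for IER5L and SRF in K562 and for 0 of 8 pairs in NIH-3T3 cells, and in the nucleus for SRF and IER2 in K562 and for EGR3 and SRF in NIH-3T3 cells. On chromatin 3 of 8 pairs were apart in NIH-3T3 cells, IER3 from IER2, EGR1 from NR4A1 and EGR2 from SRF, and 0 of 6 in K562 cells. For export and polysome loading 0 pairs were apart in either line.

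Other immediate early genes, listed from textbook knowledge with earlier results of these data known, had short half-lives of the same order. In K562 cells the 25 such genes with a whole-cell value, of 37 listed, had a median of 36.5 minutes, against 59.8 minutes for the 7 members and 208 minutes for all genes, and 25 of 25 lay below the all-gene median. In NIH-3T3 cells the 35 with a value had a median of 28.3 minutes, against 26.5 minutes for the 9 members and 109.5 minutes for all genes, and 34 of 35 lay below it. SGK1, a kinase induced by serum and glucocorticoids, KLF6 and ID1 were shortest in K562 cells, at 26 and 18, 25 and 21, and 21 and 27 minutes. DUSP1, a phosphatase of MAP kinases, ZFP36, which binds AU-rich elements, and ID1 were shortest in NIH-3T3 cells, at 16 and 11, 15 and 14, and 17 and 15 minutes. MCL1, JUND and FOSB were longest in K562 cells, FOSB at 110 and 300 minutes, and ATF3, NR4A3 and JUND in NIH-3T3 cells, JUND at 130 and 100 minutes.

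Between lines, whole-cell half-lives of the other immediate early genes were longer in K562 cells for 8 and shorter for 2 of 25 tested, with a median of 0.33, against 1.05 for the members and 0.84 for all genes, of which 60.2% were longer and 5.06% shorter. Their cytoplasmic half-lives were longer for 7 and shorter for 2 of 29, with a median of 0.24 against 1.11 for all genes, of which 53.4% were longer and 2.08% shorter. On chromatin 5 were slower and 1 faster of 26, with a median of 0.27 against -0.35 for all genes, of which 10% were slower and 28.6% faster. The 9 partners listed, cofactors of SRF (the MRTF and ternary complex factors), corepressors of the EGR proteins and RXR partners of NR4A1, had whole-cell medians of 125 minutes in K562 and 105 minutes in NIH-3T3 cells. Of these 9, 2 were longer and 1 shorter in K562 cells in the whole cell, and 5 longer and 0 shorter in the cytoplasm, where the share of longer ones was near the 53.4% of all genes. NAB2, a corepressor of EGR1, had the lowest geometric mean of the partners in both lines, at 50 and 65 minutes in K562 and 63 and 52 minutes in NIH-3T3 cells. In K562 cells MRTFB, at 56 and 60 minutes, was close to it and shorter in replicate 2.

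By the genes nearest to them over 12 half-lives, EGR1 stood beside ZFP36, IER3 and JUN, IER3 beside ZFP36, SGK1 and DUSP1, and IER5 beside SPRY2, JUN and SGK1. In NIH-3T3 cells alone, with mouse symbols in capitals, IER5L stood beside ZFP280B, ZFP568 and SMAD7. EGR2, whose replicates lay 8.89 apart because of the polysome value at the bound, stood beside ZFP647, MOCS3 and ATXN7L2 at 1.26 to 1.33. EGR3 had NR4A1, ARID3A and NOCT as its nearest genes, and NR4A1 had EGR3, ARID3A and PDK4.

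The members share a compact gene structure that the choice by name did not use. In the transcript chosen for each gene, 2 had 1 exon (IER5 and IER5L) and 5 had 2 (EGR1, EGR2, EGR3, IER2 and IER3), so 7 of 9 had at most 2, against 7.82% of the 12797 K562 genes, whose median was 9. NR4A1 had 8 exons and SRF had 7. Genomic lengths ran from 1356 bases for IER3 to 10209 bases for SRF (chr6:43171299-43181507), against a median of 25706 bases. Transcript lengths were ordinary, from 1244 bases for IER3 to 4336 for EGR3, against a median of 2992.

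Over all genes, K562 medians were lower where exons were few. The chromatin median was 36.7 minutes in the 308 genes with 1 exon and a value, 34.4 minutes in 566 with 2 and 50.9 minutes in 11112 with 3 or more, and the cytoplasmic medians were 31.5, 37.6 and 86.9 minutes. On chromatin EGR1 (23.5 minutes, geometric mean of the replicates) and IER3 (18.5 minutes) were below the median of genes with 2 exons, and IER2 (39.3 minutes) was above it. In the cytoplasm EGR1, IER3 and IER2, at 4.30, 3.13 and 1.22 minutes, lay far below the 37.6 minutes of genes with 2 exons. EGR3, also with 2 exons, lay above it at 563 minutes, a mean of 46 minutes and the bound of 6900 minutes. SRF, at 24 minutes on chromatin and at 58.5 minutes in the cytoplasm, was below both medians of genes with 3 or more exons.

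**Figure D4:**
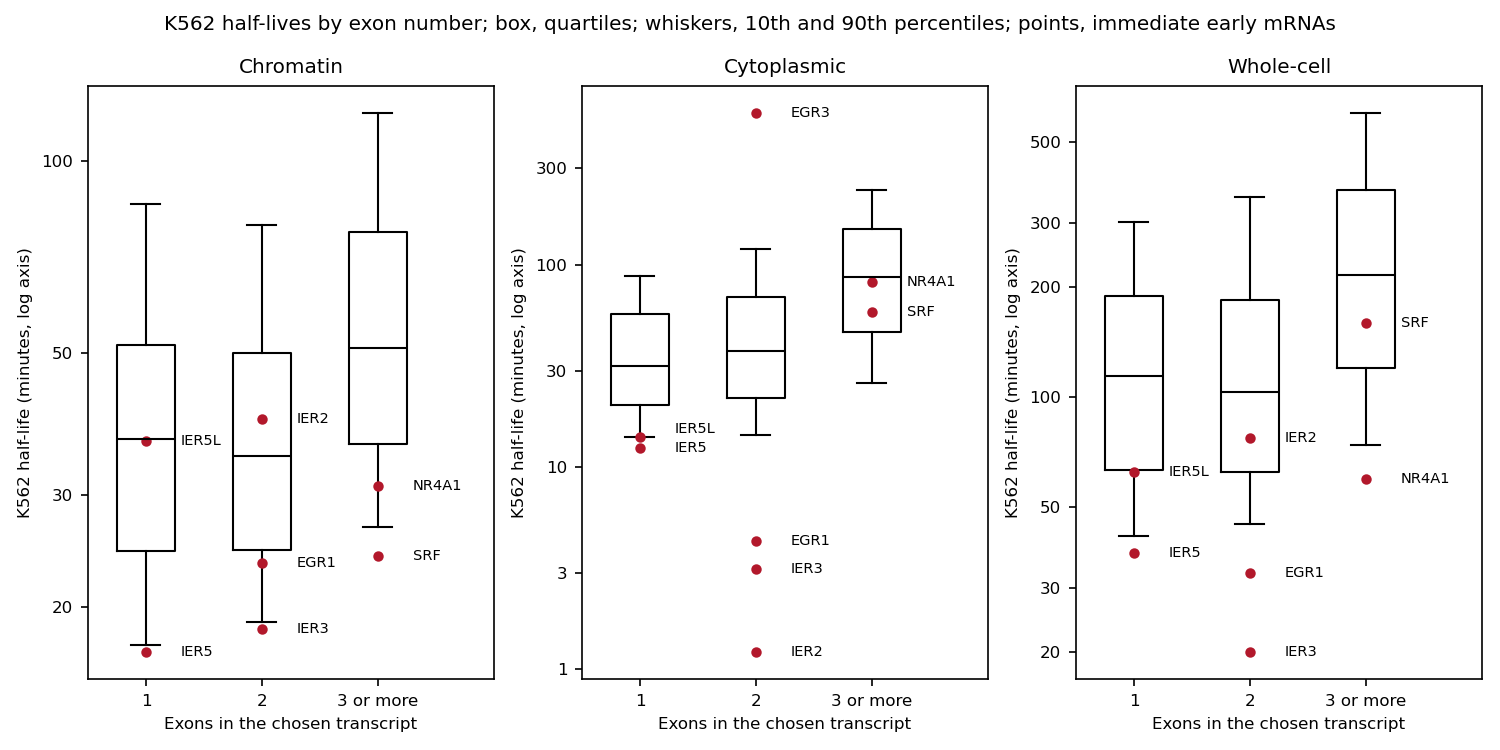
K562 half-lives on chromatin, in the cytoplasm and in the whole cell (minutes, log axes) by the number of exons of the chosen transcript, with boxes for the quartiles, whiskers for the 10th and 90th percentiles and red points for the immediate early mRNAs (geometric mean of 2 replicates). IER5 and IER3 lie under the lower whisker of their class on chromatin, and EGR1, IER3 and IER2 lie far under it in the cytoplasm.

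Over all genes, whole-cell medians in K562 cells were 214 minutes in 10333 genes without TTATTTATT, 154 minutes in 701 genes with 1, 140 minutes in 139 genes with 2 and 145 minutes in 68 genes with 3 or more. For the pentamer ATTTA per kilobase of 3′ UTR the medians showed no steady order. They were 235 minutes in 3598 genes with none and 224 minutes in 279 genes with more than 8 per kilobase. Between these they were lower, at 187 minutes in 2832 genes with up to 2 per kilobase. They were 199 minutes in 3040 genes with above 2 to 4, and 201 minutes in 1492 genes with above 4 to 8. IER3, with 8.14 pentamers per kilobase, was the shortest-lived member in the whole cell. IER2, with 0, was shortest in the K562 cytoplasm, and SRF, the most stable member in the whole cell, carries 1 TTATTTATT. These are descriptions of 9 mRNAs with no test.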

How the data were processed

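The authors deposited 1 table per line and replicate, each from a Bayesian fit to 25 samples. Half-lives in minutes are given there as posterior mode, mean and 95% credible interval, with the authors' Bayes factors and degradation call, per the file headers. Cutadapt 2.5 and STAR 2.7.0a are named in the submitters' processing notes, with hg38 and mm10, and the settings are not given in the sources used here.

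Modes were taken as deposited and logged. The lines were compared with limma 3.58.1 in R 4.3.3 (K562 over NIH-3T3, Benjamini-Hochberg over all genes per quantity), checked on simulated data. Steps within a line were called by credible intervals apart in both replicates. Replicate numbers did not pair the tables (correlation of deviations -0.0514 to 0.0250 over 9 comparisons). The members and gene lists were chosen with earlier results of these data known. The genes named are the members, the 3 nearest to each by distance over log2 half-lives, and the 3 shortest and 3 longest in the whole cell per list and line. Alternatives were the posterior mean, centring, narrow intervals, leaving out each table and a replicate block. Of 18165 human gene IDs, 17742 matched GENCODE 29, and a transcript was taken per gene by APPRIS, support level and length. No mouse sequence was used here.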

Additional observations from a re-analysis of the deposited data

Results flagged for a closer look

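The difference between lines in the ratio of nuclear to cytoplasmic half-life of IER2 was flagged because the test of that difference passed in limma. It was 4.34 on the log2 scale (K562 over NIH-3T3, adjusted p = 0.00832), from ratios of 79.8 and 43.3 in K562 cells and 3.33 and 2.54 in NIH-3T3 cells. With 1 table left out it was between 3.90 and 4.78 and passed only without K562 replicate 2. The K562 replicate 1 table is also the one with a Bayes factor of 3.7e+22 for nuclear degradation of this mRNA and with 64 minutes for export, against 0.016 and 32 minutes in replicate 2.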

How the results depend on the processing

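Counts of members moved as follows. With tables centred on their medians, 5 members in place of 3 were longer in K562 cells on chromatin, 0 in place of 1 longer and 2 in place of 1 shorter in the cytoplasm, 1 in place of 6 longer in the whole cell, and 3 in place of 1 higher in the nuclear to cytoplasmic ratio. IER5, EGR1, IER5L and SRF then turned to -0.38, -0.57, -0.87 and -0.37 in the cytoplasm. In the whole cell IER3, IER5 and SRF turned to -0.34, -0.19 and -0.65, because the median of all genes was removed. With the posterior mean 0 members were called for export in place of 2. With narrow intervals 1 was called for export and 0 were shorter in the cytoplasm, since IER2 itself was not tested there. Its interval was 4.75-fold wide for export in NIH-3T3 replicate 1 and 4.05-fold wide in the cytoplasm in K562 replicate 1. With 1 table left out, the calls between lines were 0 on chromatin in both directions, 0 in the nucleus, 0 for export, 0 longer and 0 to 1 shorter in the cytoplasm, 0 to 3 in the whole cell and 0 to 1 in the ratio. For steps within a line, modes 2-fold apart gave 0 in place of 1 slower in the K562 cytoplasm and 4 in place of 7 slower in the NIH-3T3 nucleus. By 1 replicate alone, 1 to 3 members were slower in the K562 cytoplasm, 1 had the longer K562 export step, and 2 to 4 loaded polysomes faster than they turned over in NIH-3T3 cells. A Bayes factor of at least 100 without replicate 2 marked 1 member, IER2, in K562 cells.

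The replicate numbers do not pair the tables. With the replicate block 2 members in place of 4 were longer in the K562 nucleus (EGR1 and NR4A1 lost) and 4 in place of 6 in the whole cell (IER5 and NR4A1 lost), and NR4A1 took the place of IER5 as the 1 member longer in the cytoplasm. Over all genes the block gave 1146 longer and 1190 shorter in the nucleus, in place of 1882 and 1892. The block gave 948 longer and 652 shorter for export, in place of 398 and 420, and 911 lower chromatin to export ratios, in place of 476. It gave 0 for polysome loading in place of 37 and 33, as did the posterior mean.

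Over all genes, leaving out 1 table gave 0 calls between lines in the nucleus, for export and for polysome loading, 0 to 216 longer on chromatin, 0 to 2286 longer in the cytoplasm and 0 to 4038 longer in the whole cell. Export calls of longer half-lives were 646 with the posterior mean, 909 after centring (1396 shorter) and 628 with narrow intervals. Chromatin to export ratios were higher in 82, 1032 and 274 genes under those 3 settings, in place of 175, and lower in 260 and 1105 under the first and the last. Modes 2-fold apart gave 2133 K562 genes slower in the cytoplasm in place of 3245 and 1083 with the longer export step in place of 2416. In NIH-3T3 cells they gave 2415 with the longer chromatin step in place of 3631 and 116 with the longer export step in place of 189. Loading slower than turnover went to 254 in K562 and 276 in NIH-3T3 cells, in place of 27 and 57. By a Bayes factor of 100 in 1 replicate the degradation count was 797 and 593 in K562 and 830 and 819 in NIH-3T3 cells, in place of 371 and 509. The cause of these shifts was not tested, and the unknown depth limits what the missing values of EGR2 and EGR3 in K562 cells can show.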
